A study of Rattus norvegicus with 3 samples.

Results

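The genes of glycolysis and glycogen metabolism were followed in rat soleus, a calf muscle of mainly slow fibres that holds posture, while the limb was unloaded. They were taken from a fixed list of 39 gene symbols that holds the glycolytic enzymes with their isozymes, the enzymes that make and break glycogen, and the main glucose transporters. Of these, 37 had a probe set of their own on the array, and the brightest of a gene's probe sets, averaged over the arrays, stood for it. All 37 reached the signal floor on at least 1 array, out of 11230 named genes that did so. Pkm, the pyruvate kinase of muscle, shares its probe set with a pseudogene in the annotation and Ppp1r3c, a glycogen-targeting subunit of protein phosphatase, had no named probe set, so neither was analysed here.

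The animals were white Sprague-Dawley rats of 8 weeks. A control group was compared with rats hung by the tail at about 30 degrees, so that the hind limbs bore no load, for 7 days or for 14 days. Tail suspension is a ground model of weightlessness. Every one of the 3 groups was a mix of RNA from 4 rats, measured on a single Affymetrix expression array. The control is labelled with 7 days, and no control of 14 days was used here. The 14-day sample is described as 7 days in 1 of its labels and as 14 days in its title and time entry, and was taken as 14 days.

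Glycolysis turns glucose, or glucose phosphate released from glycogen, into pyruvate and yields ATP without oxygen, and pyruvate is then either burned in mitochondria or reduced to lactate. Fast-twitch fibres are known for a high capacity of this route and for large glycogen stores that phosphorylase mobilises during contraction. The soleus of the rat consists mostly of slow fibres, which rely on mitochondria, and many steps of the pathway have one isozyme typical of adult muscle and others typical of heart, liver or most tissues.

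Because each group was a single pool on a single array, no spread between rats can be given and no test was made; the number of arrays limits the precision. The only error estimate is technical. It is the SD of the log2 difference of 1 probe set, estimated from 2294 genes with a pair of probe sets, and for 14 days against control it was 0.28 at mean log2 signals of 10 and above, 0.35 from 8 to 10 and 0.48 under 8. A difference of at least 1.5-fold, 0.58 on the log2 scale, is called higher or lower below, and values under the floor, a log2 signal of 6.01, were raised to it. Differences may be compressed near the top of the scale, and 8 members lay within 1 log2 unit of their array's highest value on at least 1 array, namely Aldoa, Tpi1, Gapdh, Pgk1, Pgam2, Eno3, Ldha and Ldhb. In a whole muscle, fewer cells of a type and less RNA per cell cannot be told apart.

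After 7 days of suspension 8 of the 37 genes were called higher than control and 3 lower, where 9.04% of all measured genes were called higher and 9.15% lower. After 14 days 16 were higher and 4 lower, against 11.7% and 9.25% of all measured genes. Between the suspended arrays 6 genes were higher at 14 days than at 7 days and 2 were lower, against 6.44% and 4.28%. The median log2 difference of the 37 genes was 0.20 at 7 days, 0.42 at 14 days and 0.18 between the suspended arrays, beside medians of 0.00, 0.01 and 0.00 over all measured genes. The members were chosen with earlier results of these data known, so these counts describe the list and are no test of it.

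**Figure D1:**
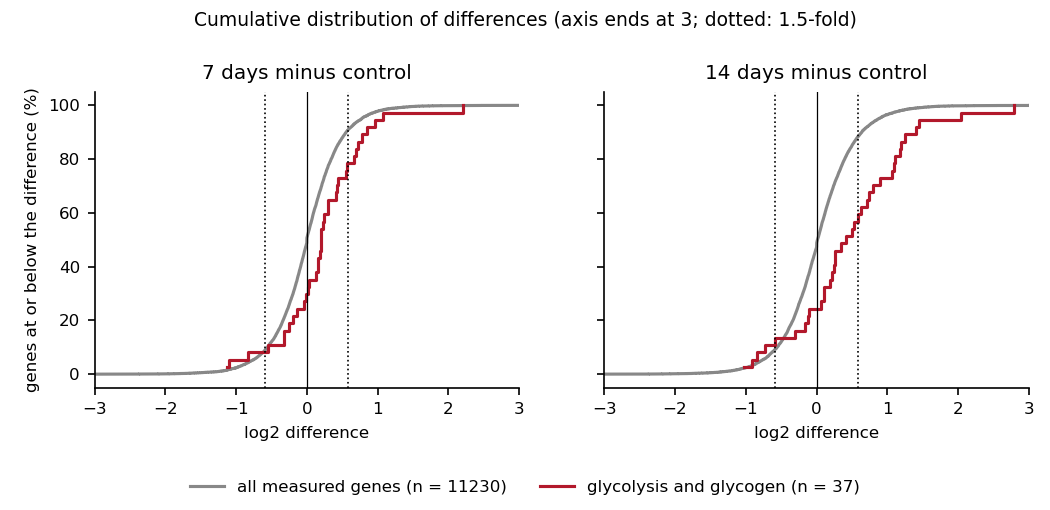
Cumulative share of genes (y axis, percent) at or below each log2 difference (x axis) for the 37 glycolysis and glycogen genes (red) and for all 11230 measured genes (grey), at 7 days (left) and 14 days (right) against control; dotted lines mark 1.5-fold. The red curve lies to the right of the grey one over most of its course, more so at 14 days, where its median is 0.42.

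The genes differed in direction. Above control on both days stood 23 of the 37, below control on both days 6, and on different sides on the different days 8. In 19 genes the signal was ordered control, 7 days, 14 days from low to high, and in 2, Ldhb and Gbe1, the order was the reverse. Sides on both days and orders were not counted over all measured genes, and both differences share the control array. Day by day, 26 of the 37 were above control at 7 days and 28 at 14 days. Over all 11230 measured genes 5547 and 5756 were. By role, the median log2 difference at 14 days was 1.23 for the fructose bisphosphate control points, 0.99 for glycogen breakdown, 0.93 for the lactate and glycerol phosphate branch, 0.50 for upper glycolysis, 0.22 for lower glycolysis, and 0.16 each for uptake and glycogen synthesis. A low median can hide members of opposite direction, as in lower glycolysis, where Pgam1 was lower and Pgam2 higher.

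**Figure D2:**
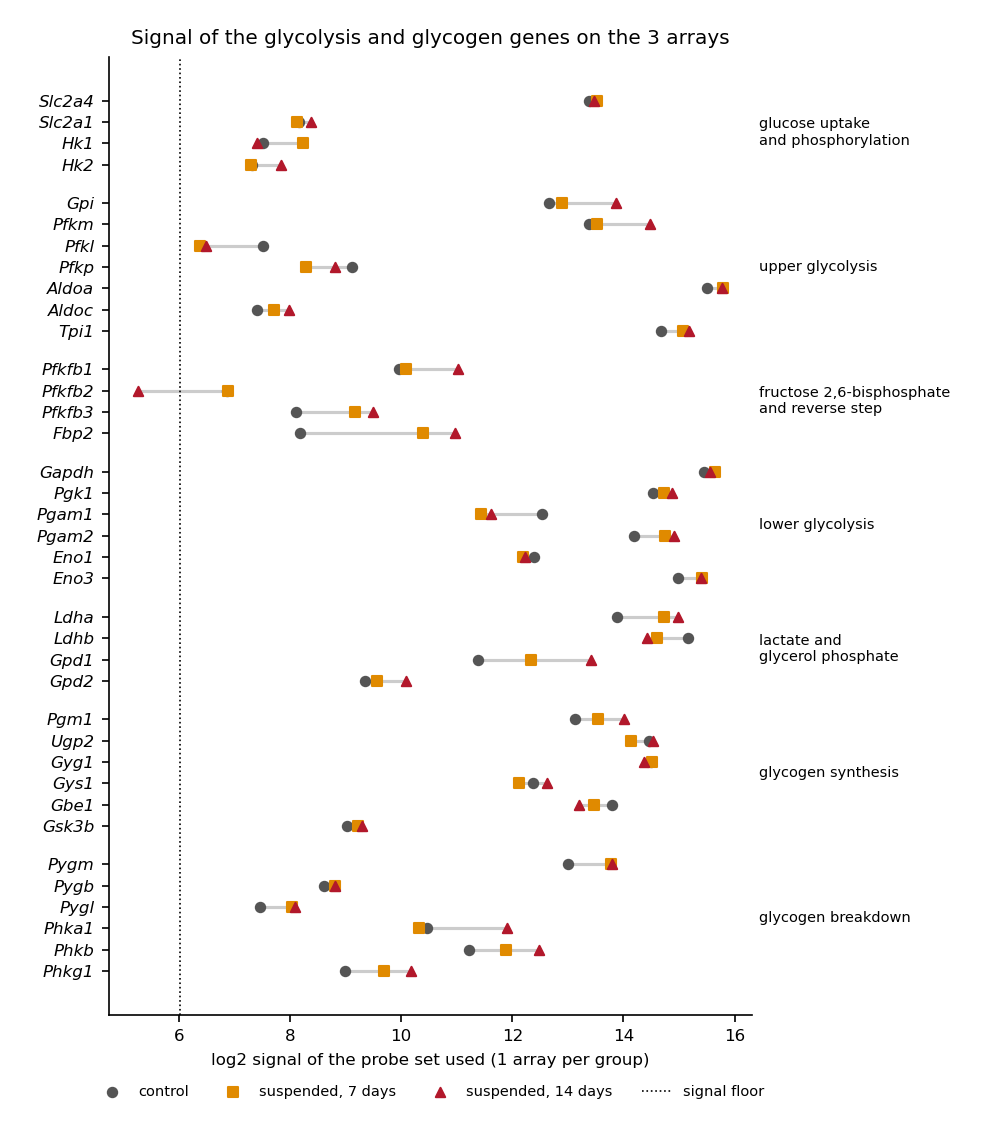
Log2 signal (x axis) of the probe set used for each gene (rows, grouped by role) on the control (circle), 7-day (square) and 14-day (triangle) arrays, 1 array per group; the dotted line is the signal floor of 6.01. Signals of different genes come from different probe sets and are not comparable in level. The widest spans upward belong to Fbp2 and Gpd1, and Pfkfb2 lies under the floor at 14 days.

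The glucose transporters among the members showed no called difference. Slc2a4, the insulin-sensitive glucose transporter GLUT4, had log2 signals of 13.38 in control, 13.53 at 7 days and 13.48 at 14 days. A second Slc2a4 probe set read 10.82, 11.18 and 10.73. All these values lie within 1.5-fold of control, and the probe sets differ in sign at 14 days. Slc2a1, the transporter GLUT1 found in most tissues, read 8.16, 8.12 and 8.37.

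The hexokinases, which trap glucose as glucose 6-phosphate, differed in time. Hk1, the general form, read 7.52 in control, 8.24 at 7 days and 7.41 at 14 days, so that it was 1.65-fold higher at 7 days only, by a log2 difference of 0.72 against a technical SD of 0.49. A further Hk1 probe set had log2 signals of 1.37, 6.62 and 2.31 and reached the floor at 7 days alone. The 3 control probe sets of hexokinase never reached the floor. Their signals went the other way at 7 days, by log2 differences from control of -2.68, -0.57 and -1.41. Signals this dim cannot decide the direction, so the 7-day call of Hk1 rests on a single probe set. Hk2, the insulin-responsive muscle form, read 7.31, 7.29 and 7.83, a difference of 0.52 at 14 days that was not called.

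In upper glycolysis 2 of 7 genes, Gpi and Pfkm, were called higher at 14 days than at 7 days. The other 5 lay within 1.5-fold between the suspended arrays. Gpi, which converts glucose 6-phosphate to fructose 6-phosphate, had log2 signals of 12.66 in control, 12.90 at 7 days and 13.86 at 14 days. Pfkm, the muscle subunit of phosphofructokinase, the committed step, read 13.38, 13.53 and 14.48. Both genes were near control at 7 days and clearly above both other arrays at 14 days, by 2.29-fold and 2.14-fold over control. A further Pfkm probe set above the floor gave log2 differences of 0.16 at 7 days and 1.29 at 14 days.

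The other phosphofructokinase subunits ran the other way. Pfkl, the liver-type subunit, read 7.51 in control, 6.38 at 7 days and 6.48 at 14 days, or 2.19-fold and 2.04-fold lower, at signals close to the floor. Pfkp, the platelet-type subunit, read 9.12, 8.29 and 8.81 and was 1.77-fold lower at 7 days, but only 1.23-fold lower at 14 days. Thus both non-muscle subunits had their highest signal in the control.

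Aldolase and triose phosphate isomerase differed little. Aldoa, the muscle aldolase that splits fructose 1,6-bisphosphate, read 15.50, 15.79 and 15.77 near the top of the scale, where the gap to the array's highest value was 0.10 at 14 days. Aldoc, the brain-type aldolase, read 7.40, 7.70 and 7.99 and just passed the 1.5-fold mark at 14 days, by 0.59 with a technical SD of 0.48, a call that was lost under quantile normalization at 0.56. Tpi1, which interconverts the triose phosphates, read 14.67, 15.08 and 15.17.

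The genes around the phosphofructokinase control point gave some of the largest differences. Fructose 2,6-bisphosphate is the main allosteric activator of phosphofructokinase, and the Pfkfb enzymes make and remove it. Pfkfb3, a form with a strong kinase side, had log2 signals of 8.10 in control, 9.17 at 7 days and 9.50 at 14 days. Its suspended signals were 2.11-fold and 2.64-fold above control, while its further probe sets stayed under the floor on every array. Pfkfb1, which encodes the liver and skeletal muscle form, read 9.96, 10.08 and 11.03, and differed only at 14 days, by 2.09-fold.

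Pfkfb2, the heart form, was the exception among them. It read 6.86 in control, 6.88 at 7 days and 5.27 at 14 days, under the floor, and so was at least 1.80-fold lower at 14 days. Each of its other probe sets was under the floor on at least 1 array. The second read 6.65, 5.67 and 6.03, lowest at 7 days, so the value rests on a single dim probe set. Fbp2, the muscle fructose bisphosphatase that runs the step backwards, read 8.18 in control, 10.39 at 7 days and 10.96 at 14 days. It was 4.62-fold and 6.90-fold above control, the largest difference among the 37 genes and beyond 99.9% of all measured genes at 14 days.

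Lower glycolysis showed few called differences. Gapdh, read by the 3' control probe set of the array, gave 15.45, 15.65 and 15.55, and its 5' and middle probe sets differed from control by 0.20 to 0.21 at 7 days and by 0.15 at 14 days. Pgk1, phosphoglycerate kinase, read 14.53, 14.73 and 14.87. Eno3, the muscle enolase, read 14.98, 15.41 and 15.39, and Eno1, the general enolase, 12.39, 12.20 and 12.22. None of these reached 1.5-fold, and Gapdh, Eno3 and Pgk1 lay where differences may be compressed.

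The phosphoglycerate mutases parted. Pgam2, the muscle form, read 14.19 in control, 14.75 at 7 days and 14.91 at 14 days, or 1.47-fold and 1.64-fold higher. Pgam1, the form of most other tissues, read 12.53, 11.43 and 11.61, or 2.13-fold and 1.88-fold lower. Control was the lowest array for Pgam2 and the highest for Pgam1.

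At the end of the pathway the lactate dehydrogenases also parted. Ldha, the subunit typical of glycolytic muscle, had log2 signals of 13.88 in control, 14.72 at 7 days and 14.99 at 14 days. Ldhb, the subunit typical of heart and oxidative muscle, read 15.16, 14.61 and 14.43. Ldha was thus 1.80-fold and 2.16-fold higher, and Ldhb 1.46-fold and 1.66-fold lower, the latter from a control signal near the top of the scale.

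The glycerol phosphate enzymes pass reducing equivalents from cytosol to mitochondria and supply glycerol 3-phosphate for fat synthesis. Gpd1, the cytosolic enzyme, read 11.38 in control, 12.34 at 7 days and 13.42 at 14 days, a stepwise order with a 1.95-fold and then a 4.13-fold difference from control. A dim second probe set had the same order at 3.63, 5.85 and 6.97, reaching the floor only at 14 days. Gpd2, the mitochondrial enzyme, read 9.34, 9.57 and 10.08 and was 1.67-fold higher at 14 days. The other Gpd2 probe set gave larger differences, of 1.09 at 7 days and 2.01 at 14 days on the log2 scale.

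**Figure D3:**
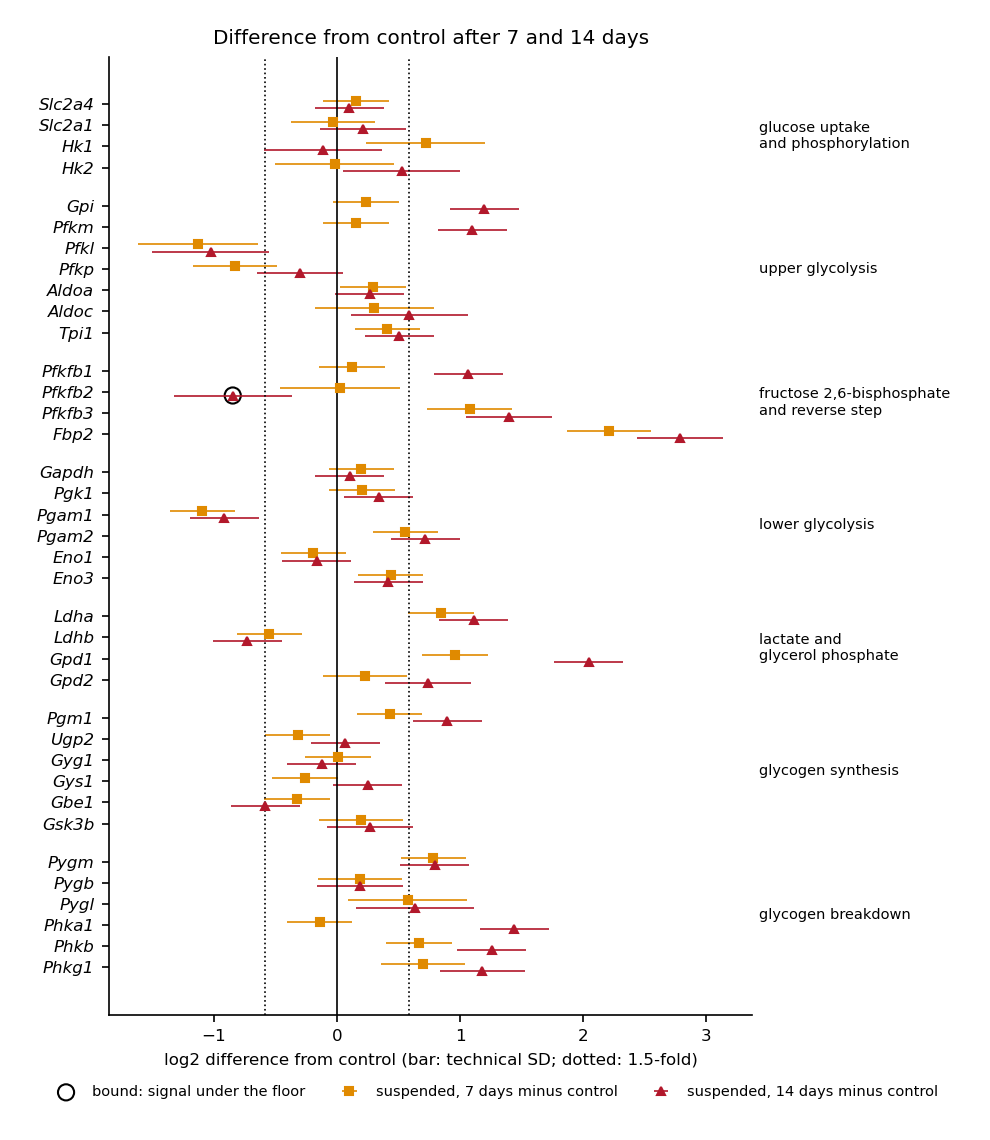
Log2 difference from control (x axis) at 7 days (square) and 14 days (triangle) for each gene (rows, grouped by role); bars are the technical SD of 1 probe set and not a spread between rats, dotted lines mark 1.5-fold, and the open circle marks a bound. In glycogen breakdown 5 of 6 genes lie beyond the right dotted line at 14 days, whereas in glycogen synthesis only Pgm1 does.

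Glycogen breakdown was called higher in 3 of 6 genes at 7 days and in 5 of 6 at 14 days, and none was lower. Pygm, the muscle glycogen phosphorylase that releases glucose 1-phosphate, had log2 signals of 12.999 in control, 13.78 at 7 days and 13.79 at 14 days. Its difference at 7 days, 1.72-fold, was already as large as at 14 days, 1.73-fold, and the further Pygm probe sets gave 0.39 and 0.62 at 7 days and 0.90 and 0.84 at 14 days. Pygl, the liver form, read 7.46, 8.04 and 8.09, and Pygb, the brain form, 8.62, 8.80 and 8.81. Of these, Pygl passed 1.5-fold at 14 days only, within 2 technical SD.

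Phosphorylase kinase switches phosphorylase on in response to calcium and adrenaline, and all 3 subunit genes on the list were higher at 14 days. Phka1, the muscle regulatory alpha subunit, read 10.46 in control, 10.32 at 7 days and 11.90 at 14 days. It was level with control at 7 days and 2.71-fold above it at 14 days, and the second Phka1 probe set gave log2 differences of -0.57 and 0.97. Phkb, the beta subunit, read 11.22, 11.89 and 12.48, and Phkg1, the catalytic gamma subunit of muscle, 8.997, 9.70 and 10.18. Both had a step on each interval and ended 2.39-fold and 2.27-fold above control.

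The 6 genes listed under glycogen synthesis had fewer calls than those under breakdown. None of them was called at 7 days and 1 at 14 days. That gene was Pgm1, phosphoglucomutase, which works in both directions between glucose 1-phosphate and glucose 6-phosphate. It read 13.12, 13.55 and 14.02, or 1.86-fold above control at 14 days, and its second probe set gave a log2 difference of 1.17.

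None of the enzymes committed to building glycogen was called on either day. Gys1, the muscle glycogen synthase, read 12.37 in control, 12.11 at 7 days and 12.62 at 14 days. Ugp2, which makes UDP-glucose, read 14.46, 14.14 and 14.52, and Gyg1, the primer protein glycogenin, 14.50, 14.51 and 14.38. Gbe1, the branching enzyme, read 13.79, 13.46 and 13.21. Its difference of -0.58 at 14 days, or -2.08 technical SD, lay just inside the 1.5-fold mark. Gsk3b, a kinase that inhibits glycogen synthase, read 9.03, 9.22 and 9.30. The median log2 difference at 14 days was 0.99 over the breakdown genes and 0.16 over the synthesis genes.

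Muscle-type and other isozymes were set side by side in 12 pairs, some of which share a gene. Pfkfb1, the form of liver and skeletal muscle, was counted as the muscle type in its pairs with Pfkfb2 and Pfkfb3. The muscle-type gene had the higher log2 difference from control in 9 of the 12 pairs at 7 days and in 9 at 14 days. The gap was beyond 2 technical SD in favour of the muscle-type gene in 4 pairs at 7 days and 5 at 14 days, and in favour of the other gene in 1 pair at 7 days and 0 at 14 days. The gap at 14 days was 2.13 for Pfkm over Pfkl, 1.84 for Ldha over Ldhb, 1.63 for Pgam2 over Pgam1 and 1.40 for Pfkm over Pfkp. It was 1.91, a bound, for Pfkfb1 over Pfkfb2, which rests on a single dim Pfkfb2 probe set. Smaller gaps, under 2 technical SD, were found for Eno3 over Eno1 at 0.58 and Pygm over Pygb at 0.60. At 7 days Pfkfb1 lay 0.95 below Pfkfb3, or 2.20 technical SD, Hk2 lay 0.74 below Hk1, or 1.08 technical SD, and Aldoa lay 0.01 below Aldoc. Aldoa, Slc2a4 and Pfkfb1 lay below Aldoc, Slc2a1 and Pfkfb3 at 14 days, by 0.32, 0.11 and 0.33, all within 1 technical SD of the gap. Aldoa was close to the highest signals of the arrays. Gpd1 and Gpd2 are the cytosolic and mitochondrial enzymes of one shuttle rather than muscle and other forms and are not counted among the pairs; both were higher at 14 days.

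**Figure D4:**
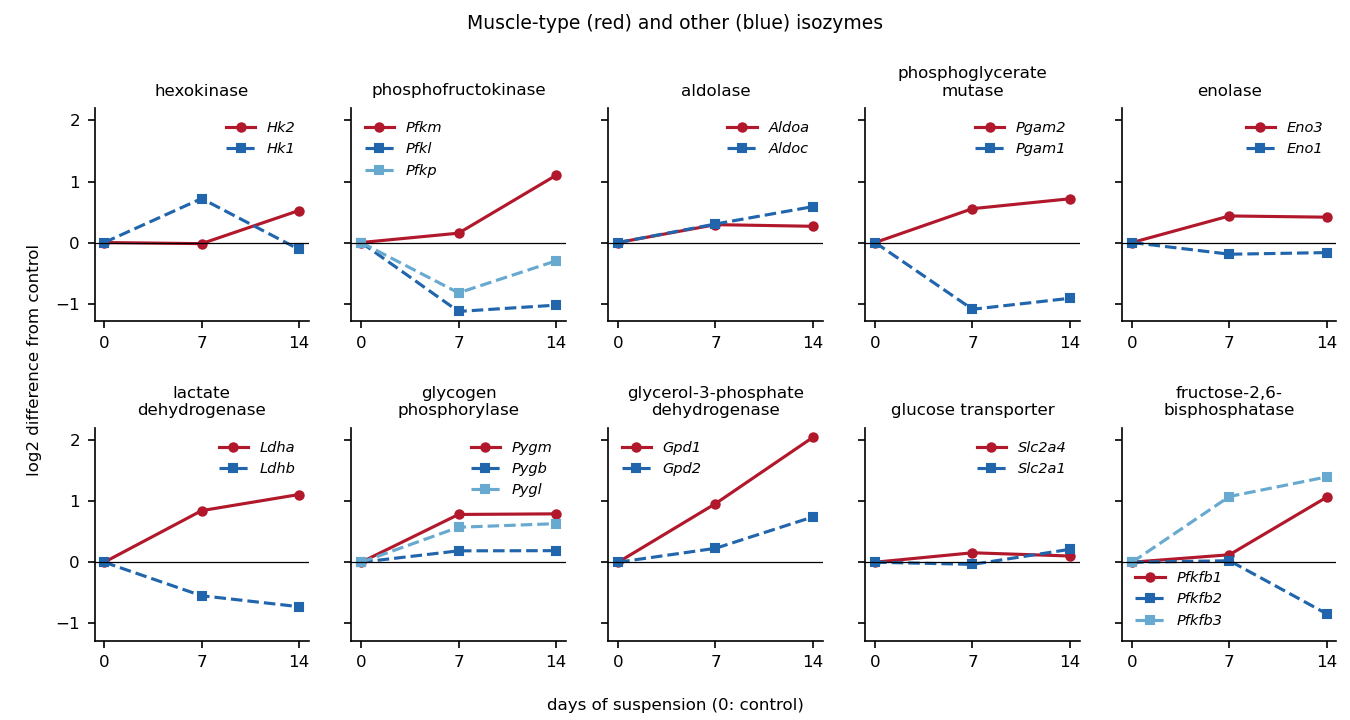
Log2 difference from control (y axis) at 0 (control), 7 and 14 days (x axis) for the isozymes of 10 families, 1 array per time; the muscle-type form is the solid red line and the others are dashed blue, with cytosolic Gpd1 drawn in red beside mitochondrial Gpd2. The lines part in opposite directions for phosphofructokinase, phosphoglycerate mutase and lactate dehydrogenase, and run together for aldolase and the glucose transporters.

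The timing of the differences varied between genes. Of the 20 genes called at 14 days, 9 were also called at 7 days. This overlap was not counted over all measured genes, so it describes the list only. It also depends on the threshold. At 7 days Pgam2 was 1.47-fold and Pygl 1.49-fold higher and Ldhb 1.46-fold lower, just short of a call. Pygm had reached 98.7% of its 14-day log2 difference at 7 days, Fbp2 79.3%, Pgam2 77.4%, Pfkfb3 77.0%, Ldha 76.2% and Ldhb 75.4%. The Pygm share holds for its brightest probe set only. Its further probe sets, above the floor on all arrays, gave 0.39 and 0.62 at 7 days beside 0.90 and 0.84 at 14 days. By contrast Gpi had reached 19.7%, Pfkm 13.9%, Pfkfb1 11.5% and Phka1, which lay slightly below control, -9.77%. The log2 differences of the last 4 genes between the suspended arrays were 0.96, 0.95, 0.94 and 1.58, where the technical SD was 0.20. The second Phka1 probe set gave -0.57 at 7 days and 0.97 at 14 days. Gpd1, Phkb, Phkg1, Pgm1 and Aldoc lay between, at 46.9% to 59.3%. Gpd2 had reached 30.7% and Pygl 90.7%. Pgam1 and Pfkl lay further below control at 7 days than at 14 days, with shares of 119.6% and 110.0%. For Pfkfb2, a bound at 14 days, the share was -2.83%. These shares carry no error, since each rests on 3 arrays, and the differences from control on the 2 days share the control array.

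To show what the partner isozymes of opposite direction have in front of them, the 250 bases before the start site, on the rat build GRCr8 from RefSeq, are shown for the lactate dehydrogenase and phosphoglycerate mutase pairs and for Pfkfb3, which of the Pfkfb genes stood furthest above control. They lie at chr1:106507842-106508091 on the plus strand for Ldha, at chr4:177177409-177177658 on the minus strand for Ldhb, at chr14:84897875-84898124 on the minus strand for Pgam2, at chr1:250672902-250673151 on the plus strand for Pgam1 and at chr17:71944683-71944932 on the plus strand for Pfkfb3. Capitals mark each match, on either strand, of ACGTG, the core bound by hypoxia-inducible factors and some other factors, and of CANNTG, the E-box read by the myogenic factors among others; CACGTG holds both.
Ldha: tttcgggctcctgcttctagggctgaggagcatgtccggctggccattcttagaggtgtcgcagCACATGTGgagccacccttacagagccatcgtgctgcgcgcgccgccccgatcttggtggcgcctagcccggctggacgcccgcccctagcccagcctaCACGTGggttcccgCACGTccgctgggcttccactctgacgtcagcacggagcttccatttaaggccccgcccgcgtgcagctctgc
Ldhb: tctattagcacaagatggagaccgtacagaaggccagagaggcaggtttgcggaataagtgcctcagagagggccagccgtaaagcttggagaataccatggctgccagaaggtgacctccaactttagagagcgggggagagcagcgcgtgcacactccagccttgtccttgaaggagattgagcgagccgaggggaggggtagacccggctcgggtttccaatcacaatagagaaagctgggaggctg
Pgam2: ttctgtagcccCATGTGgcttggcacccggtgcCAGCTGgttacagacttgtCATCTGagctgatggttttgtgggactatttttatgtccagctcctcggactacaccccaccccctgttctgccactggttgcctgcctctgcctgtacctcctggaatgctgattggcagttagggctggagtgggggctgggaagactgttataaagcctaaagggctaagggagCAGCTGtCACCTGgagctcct
Pgam1: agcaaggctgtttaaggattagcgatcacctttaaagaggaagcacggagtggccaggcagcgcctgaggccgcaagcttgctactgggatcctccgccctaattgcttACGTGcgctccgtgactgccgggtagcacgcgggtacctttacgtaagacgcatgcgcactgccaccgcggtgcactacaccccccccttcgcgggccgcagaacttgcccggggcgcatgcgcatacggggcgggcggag
Pfkfb3: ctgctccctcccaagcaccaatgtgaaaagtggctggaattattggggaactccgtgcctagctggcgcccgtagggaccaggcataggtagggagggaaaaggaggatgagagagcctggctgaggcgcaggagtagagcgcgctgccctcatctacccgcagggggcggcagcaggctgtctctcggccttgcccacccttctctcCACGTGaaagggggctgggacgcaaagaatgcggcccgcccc
The Ldha window held 3 CANNTG, 1 of them a CACGTG, and a further ACGTG downstream of it, whereas the Ldhb window held no match of either motif. Pgam2 held 5 CANNTG and no ACGTG, and Pgam1 1 ACGTG and no CANNTG. Pfkfb3 held 1 CACGTG.

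Promoter windows were found for 33 of the 37 genes, at 38 start sites, with none for Gpd1, Fbp2, Slc2a4 and Pgk1. ACGTG was present in 17 of the 33 genes, or 51.5%, against 23.3% of 9348 measured genes with a window and 18.1% of all 27457 genes of the table. It was present in 8 of the 14 genes called higher at 14 days and in 9 of the other 19. CANNTG was present in 66.7% of the 33, in 58.3% of measured genes and in 67.01% of all genes. For CACGTG these shares were 12.1%, 8.75% and 6.18%, and for GGGTGG, a box of GC-rich promoters that Sp and Klf factors can read, 33.3%, 33.9% and 28.0%. The median GC content was 60% over the members' windows, 59.6% over those of measured genes and 51.2% over all. A match is a description of the letters and not of a bound site.

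Other genes of the pathway were taken from further lists. Over all measured genes, 9.04% were called higher and 9.15% lower at 7 days, and 11.7% and 9.25% at 14 days. A count close to those shares is no result about a list. Of 11 measured glycolytic isoforms and neighbours outside the members, 1 was called higher and 2 lower at 7 days, and 5 higher and 1 lower at 14 days. Pck1, cytosolic phosphoenolpyruvate carboxykinase, had log2 signals of 7.38, 10.87 and 9.59, highest at 7 days. Pck2, its mitochondrial counterpart, read 6.79, 6.96 and 8.04, with a difference at 14 days only. Pfkfb4 was 2.15-fold lower at 7 days, and Gapdhs, the sperm-type form of Gapdh, 1.99-fold lower at 14 days at dim signals.

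Among 13 further measured glycogen genes none was higher and 1 was lower at 7 days, and 3 were higher and none lower at 14 days. Those that were higher were Stbd1, which tethers glycogen to membranes (9.90, 10.05 and 11.03), and the glycogen-targeting phosphatase subunits Ppp1r3b (6.62, 6.82 and 7.75) and Ppp1r3a (12.03, 12.40 and 12.93). Their differences at 7 days were small, as for Pfkm and Gpi. Gaa, the lysosomal glycogen-degrading enzyme, was 1.59-fold lower at 7 days.

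Of 8 measured transport genes 3 were higher and 2 lower at 7 days and 4 higher and 1 lower at 14 days. Slc16a3, the lactate exporter MCT4 of glycolytic fibres, read 11.18 in control, 12.33 at 7 days and 13.11 at 14 days and was 3.80-fold higher at 14 days, in the same order as Ldha. Slc16a7, the transporter MCT2, was 2.06-fold lower at 7 days and near control at 14 days. Slc37a4, the glucose 6-phosphate translocase, was 2.37-fold and Slc2a8, a further glucose transporter, 1.94-fold higher at 14 days. In the pentose phosphate branch 2 of 7 genes were higher and none lower at 7 days, and 1 was higher and 1 lower at 14 days, with Tkt, transketolase, 1.56-fold higher and Taldo1, transaldolase, 1.60-fold lower.

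Upstream regulators were mixed. At 7 days 3 of 20 were higher and 2 lower, against 9.04% and 9.15% of all measured genes. At 14 days 6 were higher and 2 lower, against 11.7% and 9.25%. The counts of lower genes were thus near the share over all genes. Prkag3, a subunit of AMP-activated kinase found in glycolytic fibres, was 3.38-fold and 3.36-fold higher on the 2 days. Eya1, a transcriptional cofactor that promotes the fast programme, was 2.05-fold higher at 14 days. Irs2, an adaptor of the insulin receptor, was 2.09-fold and 2.50-fold lower, and Mlxipl, a glucose-sensing transcription factor, 1.87-fold and 2.01-fold lower.

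**Figure D5:**
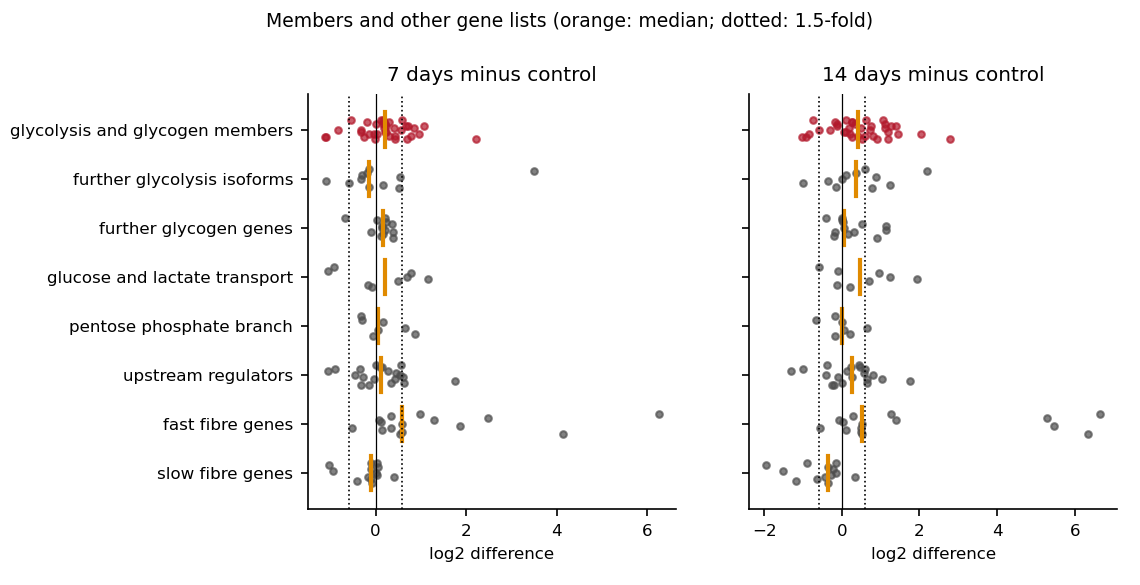
Log2 difference from control (x axis; the panels have different ranges) at 7 days (left) and 14 days (right) for the 37 members (red points) and the measured genes of 7 further lists (grey points); orange bars are list medians and dotted lines mark 1.5-fold. The members' median moves from 0.20 to 0.42, and the fast fibre list holds points far to the right on both days.

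Fibre type genes differed on the same arrays, and their part in the differences of the metabolic genes was not tested. Of 15 fast fibre genes 6 were called higher at 7 days and 6 at 14 days, with none lower, and of 13 slow fibre genes 2 and 5 were called lower, with none higher. Actn3, the alpha-actinin of fast fibres, read 8.94, 13.07 and 15.27, and Pvalb, the calcium buffer of fast fibres, 9.49, 11.34 and 14.94, both lowest in control and highest at 14 days. The list was not uniform. Myh4 had most of its difference of 6.66 already at 7 days, with 6.26, and Myh1 lay below control, at -0.52 and -0.56. From 7 to 14 days 8 of its 15 genes had slightly lower signals, with log2 differences of -0.15 to -0.02. These lie within the technical SD of 0.20, and most come from signals near the top of the scale. Casq2, the slow and cardiac calsequestrin, read 13.66, 12.64 and 11.71. The 8 markers used to check for skeletal muscle fibres, Acta1, Ckm, Mb, Ttn, Des and the slow fibre genes Myh7, Tnnt1 and Tnnc1, differed from control by -0.07 to 0.06 at 7 days and by -0.35 to -0.04 at 14 days, near the top of the scale for most.

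Markers of other cell types that the muscle holds also differed between the pools. Beside their counts stand the shares over all measured genes, 9.04% higher and 9.15% lower at 7 days. At 14 days these shares were 11.7% and 9.25%. Fat cells express Gpd1, Pygl and Slc2a4, and of 9 measured adipocyte markers, which include Pck1, 5 were called higher and none lower at 7 days, and 4 higher and 1 lower at 14 days. From 7 to 14 days all 9 had lower signals, with a log2 difference of -0.29 for Adipoq, and the difference of Gpd1 was 1.09. The list's unlogged signals summed to 50312, 57556 and 42333 in control and after 7 and 14 days. Such a sum is weighted towards the brightest genes, here Lpl (log2 14.65, 14.24 and 13.86) and Fabp4 (13.98, 14.22 and 13.70). Against control at 14 days, 6 of the 9 markers were above and 3 below. Adipoq was above by 0.61, Plin1 by 0.93, Scd by 1.74 and Pck1 by 2.20. Lep was under the floor on every array. The part of fat cells in the values of Gpd1, Pygl and Slc2a4 was not tested. Macrophage markers, of which 4 of 10 were higher on each day and none lower, summed to 10248, 13389 and 13846, and Hk1, Pfkfb3 and Pygl are also expressed in such cells; the part of these cells was not tested. The 3 measured nerve and Schwann cell markers, Mbp, Pmp22 and S100b, were each called higher at 14 days, while Mag and Sox10 were under the floor on every array, and the list summed to 7126, 9618 and 13769. The part of nerve and Schwann cells in the differences of Aldoc was not tested.

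For red blood cells the 4 measured markers had lower signals at 14 days than in control, and 2 were called lower, with sums of 21038, 24996 and 18531. Endothelial markers had no called difference from control, with sums of 6734, 6342 and 7433. Smooth muscle markers had 1 lower at 7 days, with sums of 7185, 5992 and 6771. Fibroblast and tendon markers had 1 higher and 2 lower at 7 days and 3 higher and 1 lower at 14 days, with sums of 42247, 47579 and 66214, and Cdh15, the 1 satellite cell marker measured, differed by 0.06 on both days.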

How the data were processed

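Total RNA of rat soleus was labelled as biotinylated cRNA and hybridised to Affymetrix arrays, 1 per pool of 4 rats, per the labels' protocols and series description. The authors deposited log2 signals per probe set for 31099 probe sets on 3 arrays, and each array had been scaled to nearly the same mean unlogged signal with 2% trimmed at each end (500.25, 500.248 and 500.239), as read from the values. The summary program and its settings are not given in the sources used. Values were used as deposited.

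The annotation gave 1 gene for 20832 probe sets, several for 436 and none for 9831. Symbols were updated through RefSeq gene identifiers. A gene was represented by its brightest probe set on average, which gave 14218 named genes, of which 11230 reached a floor set at the 40th percentile over the whole table (log2 6.01, or 64.6 unlogged) on at least 1 array. Named control probe sets were kept, as Gapdh has no other. Every member on the array is reported. From other lists up to 4 genes of largest difference from control per list were eligible to be named, besides genes that qualify a list's count or sum. The members and lists were chosen with earlier results of these data known. No test was made, as each group has 1 array. Technical SD came from the 2 brightest probe sets of a gene, both at or above the floor on all arrays. Alternatives were median centring, quantile normalization, averaging every probe set of a gene, no floor, a floor at the 60th percentile and a 2-fold threshold. Python 3.11.15, numpy 2.4.6, pandas 2.3.3 and matplotlib 3.10.9 were used.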

Additional observations from a re-analysis of the deposited data

Results flagged for a closer look

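For 8 genes the difference from control had opposite signs at 7 and at 14 days, each on 1 array, and whether the days differ was not tested. Phka1 differed most, by -0.14 at 7 days and 1.44 at 14 days, a gap of 1.58 on the log2 scale, and its second probe set had a gap of 1.54. Hk1 was above control at 7 days (0.72) and near it at 14 days (-0.11), a gap of -0.83. Pfkfb2 differed by 0.02 and then by -0.85, a gap of -0.87 that is a bound at the floor. Hk2 and Gys1 had gaps of 0.54 and 0.51. For Ugp2 the gap was 0.39, for Slc2a1 0.25 and for Gyg1 -0.13, and none of these 5 genes was called on either day.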

How the results depend on the processing

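The median log2 difference of the members ranged from 0.15 to 0.27 at 7 days, from 0.42 to 0.50 at 14 days and from 0.12 to 0.26 between the suspended arrays, over the settings tried. With 2-fold as the threshold, 2 genes were higher and 2 lower at 7 days (8 and 3 at 1.5-fold), where 2.21% and 2.38% of all measured genes were. At 14 days 10 were higher and 1 lower (16 and 4), against 3.47% and 2.42%, and between the suspended arrays 2 were higher and 0 lower (6 and 2), against 1.42% and 0.810%. With a floor at the 60th percentile, 2 were lower at 14 days and 1 lower between the suspended arrays, as 35 members were then measured. Of all measured genes 6.77% and 2.84% were lower there. With all probe sets of a gene averaged, 0 were lower between the suspended arrays, against 5.16% of all measured genes, and 35 members were measured. Among the single genes no called difference that could be compared changed sign under any of these settings. Of 39 calls, 35 could be compared with all probe sets averaged, where Hk1 and Pfkfb2 were not measured. With the floor at the 60th percentile 35 could be compared, as Pfkl and Pfkfb2 were not measured. The calls of these genes were thus not kept under those settings. Calls were lost for Phkb between the suspended arrays under median centring (0.59 to 0.53), for Aldoc at 14 days under quantile normalization (0.56) and the higher floor (0.43), for Pygl at 14 days under the higher floor (0.53), and for Pfkfb3 at 7 days with the mean of its probe sets (0.07), 2 of which are under the floor. Median centring moved the share of called genes that were higher, over all measured genes, from 49.7% to 61.1% at 7 days. Between the suspended arrays it moved from 60.05% to 48.9%. With centring 10 members were higher at 7 days, where 11.6% of all measured genes were, against 9.04% without it. Between the suspended arrays 5 members were higher, where 5.23% of all measured genes were, against 6.44% without it. No paired analysis was possible because each group has 1 array. Signals near the floor and near the top of the scale limit Pfkl, Pfkfb2, Aldoa, Gapdh and Eno3 most.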
